A study of Homo sapiens with 16 samples.

Results

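The genes described here encode the subunits of RNA polymerases I, II and III. They were taken from the count table by symbol, and all 30 listed symbols were found among its 26485 genes. Of these, 5 encode subunits that polymerases I, II and III all share (POLR2E, POLR2F, POLR2H, POLR2K and POLR2L) and 2 encode subunits shared by polymerases I and III (POLR1C and POLR1D). The remaining 23 belong to a single polymerase, with 6 for polymerase I, 7 for polymerase II and 10 for polymerase III. RNA was sequenced from PC3 cells, a prostate cancer line, and from HeyA8 cells, an ovarian cancer line derived from HEY-T30, with the genotype of both given as wt. In each line, cells were mock treated or transfected with siNT1, siGGGGGC or siCAG, and RNA was collected at 24 or 48 h. siNT1 is a non-targeting control, siGGGGGC carries the seed GGGGGC in its guide strand (bases 2 to 7, the part that pairs with target mRNAs) and is called siMxy in the sample titles, and siCAG is named but not described further. The labels give 1 nM siRNA, whereas the study's methods give a higher concentration. Each line, treatment and time point gave 1 library, so the libraries of 24 and 48 h are the 2 replicates of a treatment. The fits hold a term for time, which takes out a shift between the times that all treatments share. A shift that differs between treatments stays in the spread. The study's methods describe transfected wells in duplicate, with different wells lysed at 24 and 48 h, but neither they nor the labels say how wells or independent cultures became libraries. The p-values therefore measure only the spread between these libraries. The comparisons ask which subunit mRNAs changed with the siGGGGGC seed, whether shared subunits changed like those of a single polymerase, and whether siCAG did the same.

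RNA polymerase I makes the precursor of the large ribosomal RNAs, polymerase II makes mRNAs and many noncoding RNAs, and polymerase III makes tRNAs, 5S ribosomal RNA and other small RNAs. Each enzyme is built on its own pair of largest subunits, which form the active site, and on a small set of subunits that are the same proteins in all of them. Because the shared subunits are encoded by single genes, each of those mRNAs supplies all of these enzymes. An siRNA whose seed matches the 3′ UTR of an mRNA can lower that mRNA in the way a miRNA does.

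The libraries held between 27937092 and 29971612 counted reads in PC3 cells and between 29128446 and 31790209 in HeyA8 cells. Values are TMM-scaled CPM, which are read counts set to a common library size within a line, unless said otherwise. Changes are log2 fold changes with their standard error (SE) from edgeR's quasi-likelihood test over the 8 libraries of a line, and a gene passed at a Benjamini-Hochberg adjusted p under 0.05 over all genes tested. All 30 subunits were abundant enough to be tested in both lines. In bulk RNA, fewer cells of a type and less RNA per cell cannot be told apart. Prostate and ovarian markers partly matched the labels. HOXB13 lay between 76.4 and 463 CPM in PC3 cells and at no more than 2.84 CPM in HeyA8 cells, whereas PAX8 lay between 66.6 and 251 CPM in HeyA8 cells and at no more than 5.99 CPM in PC3 cells (CPM scaled over all 16 libraries). KLK3 and KLK2, which define differentiated prostate epithelium, had 0 counts in every library, and MUC16 stayed under 1 CPM in both lines. Among genes of other cell types, the T cell gene CD3E had 0 counts in every library, and PTPRC of leukocytes, HBB of red cells and ALB of hepatocytes stayed under 1 CPM. PECAM1, an endothelial gene, lay between 1.43 and 4.67 CPM in PC3 cells and between 0.0724 and 2.03 CPM in HeyA8 cells. The HeyA8 libraries transfected with siCAG stood apart from the other HeyA8 libraries. Their highest correlation with any other library of the line was 0.962 at 24 h and 0.956 at 48 h on log2 CPM, where the remaining HeyA8 libraries reached at least 0.984 (a description across genes). The variation that treatment and time left unexplained was a coefficient of variation of 18.0% for PC3 and 28.2% for HeyA8 cells, and the HeyA8 comparison of siGGGGGC with siNT1 is therefore given for POLR2E, POLR2K and POLR3D with and without the siCAG libraries.

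In mock-treated cells, the shared subunits were not expressed at one level. Levels of different genes are compared as CPM per kb of exons, scaled over all 16 libraries. The exon lengths are those of GENCODE v44, which for POLR1A, POLR1D and POLR3A, among others, reaches beyond the gene as it was counted. Levels of such genes may therefore be understated. POLR2L, a small zinc-binding subunit, had the highest level of all 30 in both lines, at 166 CPM per kb (24 h) and 196 (48 h) for PC3 and 72.0 and 106 for HeyA8 cells. In the annotation, 22.8% of its exonic bases are shared with CD151, which makes its count less certain. POLR2K, another small zinc-binding subunit, followed among the shared ones at 58.4 and 57.4 CPM per kb for PC3 and 59.3 and 55.3 for HeyA8 cells. POLR2E, which lines the jaw of the enzyme around incoming DNA, stood at 24.0 and 23.0 for PC3 and 31.6 and 35.4 for HeyA8 cells. POLR2H was close to POLR2E, at 21.6 and 24.0 for PC3 and 26.4 and 33.6 for HeyA8 cells, and the values of this pair overlapped in both lines. POLR2F was the lowest of the shared subunits, at 3.26 and 3.37 CPM per kb for mock PC3 and 4.71 and 5.24 for mock HeyA8 cells. Its exons in the annotation spread over a long locus with many alternative ends, so its length, and hence this level, depends on the annotation. By class, the median level was highest for the 5 shared subunits, at 23.5 CPM per kb for PC3 and 33.5 for HeyA8 cells. It was 5.39 and 8.08 for the 2 subunits shared by polymerases I and III, and 18.1 and 27.2 for those of polymerase II. For polymerase I it was 7.74 and 11.6, and for polymerase III 8.25 and 7.26. The order of polymerases I and III therefore differed between the lines, but their medians for PC3 cells lay close together. Between 24 and 48 h, the median of polymerase I had an SD of 0.578 there. With the longest transcript in place of all exons, the medians of polymerase II were 37.4 for PC3 and 29.5 for HeyA8 cells, so which line was higher turned. With that length POLR2K exceeded POLR2L in the HeyA8 mock library of 24 h, at 97.1 against 92.5 CPM per kb. These medians are descriptions, since the genes of a class are not replicates.

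**Figure D1:**
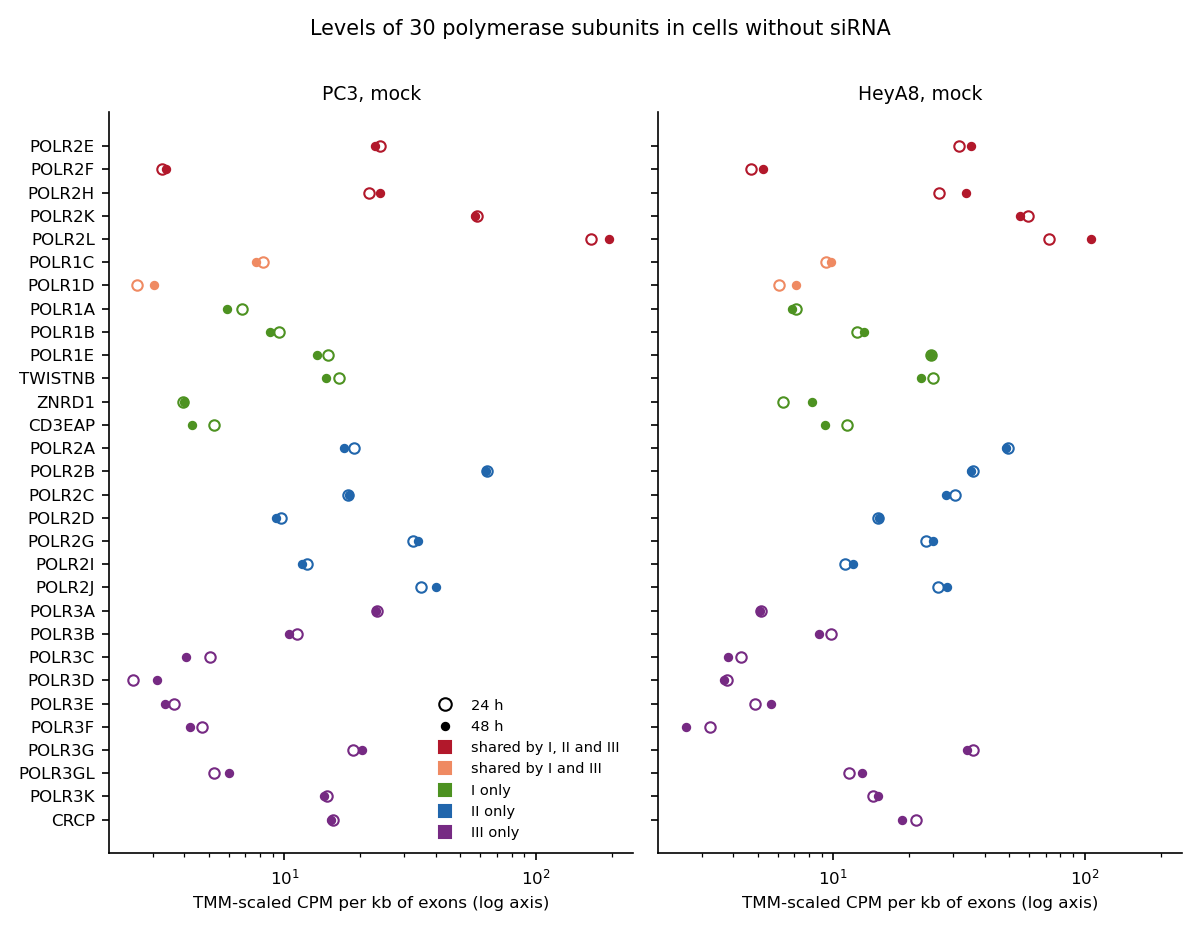
Level of each of the 30 subunits in mock-treated PC3 cells (left) and HeyA8 cells (right), as TMM-scaled CPM per kb of exons on a log axis, with open points for 24 h and filled points for 48 h, 1 library each, coloured by class. POLR2L lies highest in both lines, and POLR3A lies at 23.2 CPM per kb in the left panel and at 5.16 and 5.09 in the right.

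Among the subunits shared by polymerases I, II and III, POLR2E and POLR2K were strongly downregulated in siGGGGGC transfected PC3 cells, while POLR2F, POLR2H and POLR2L were not. POLR2E lies on chromosome 19 on the minus strand (chr19:1086579-1095392, hg38). It measured 132 and 127 CPM in mock cells at 24 and 48 h, 121 and 139 after siNT1, 46.2 and 26.4 after siGGGGGC, and 124 and 138 after siCAG. Both siGGGGGC libraries lay far below all 6 others, and the 48 h library was the lower of the pair. The change from siNT1 was a log2 fold change of -1.86 (SE 0.25, edgeR adjusted p = 0.0130), a level 3.63-fold lower. POLR2K measured 111 and 109 CPM in mock cells, 104 and 96.9 after siNT1, 39.5 and 22.7 after siGGGGGC, and 119 and 121 after siCAG. Its groups were separated in the same way, with a log2 fold change of -1.72 (SE 0.22, edgeR adjusted p = 0.0118), or 3.29-fold lower. From the lowest value upwards, POLR2E ranked 192 and POLR2K 260 among the 15136 genes tested. Across all 30 subunits, 3 passed, 2 lower and 1 higher, against 9.67% of all genes tested (6.00% lower and 3.67% higher). The share among the subunits, 10%, was thus close to that of all genes. Both decreases passed without the siCAG libraries (8.04% of genes) and when the siGGGGGC library of 24 h (23.5%) or of 48 h (3.99%) was left out. No gene passed when a siNT1 library was left out (0% of genes; edgeR, with 2825 and 2216 genes at an unadjusted p under 0.05 without that of 24 and 48 h). When the 24 h siNT1 library was left out, the log2 fold change was -2.08 for POLR2E and -1.80 for POLR2K with adjusted p-values of 0.0589 and 0.0736, and without the 48 h siNT1 library it was -1.64 for both, with adjusted p-values of 0.139 and 0.137 (edgeR). In 1 fit over 16 libraries POLR2E passed (adjusted p = 0.0268) and POLR2K did not (0.0646).

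The other shared subunits were close to their control levels. POLR2F, a subunit that stabilises the clamp, measured 25.9 and 26.7 CPM in mock PC3 cells, 30.3 and 29.9 after siNT1, 35.1 and 34.7 after siGGGGGC, and 28.8 and 30.01 after siCAG. The siGGGGGC libraries were its highest, and the log2 fold change of 0.21 (SE 0.15) did not pass (edgeR adjusted p = 0.370). POLR2H measured 77.1 and 85.9 CPM in mock cells, 73.5 and 88.0 after siNT1, 86.6 and 94.8 after siGGGGGC, and 66.7 and 67.2 after siCAG, and its siGGGGGC and siNT1 libraries overlapped. POLR2L measured 212 and 250 CPM in mock cells, 180 and 255 after siNT1, 244 and 303 after siGGGGGC, and 160 and 157 after siCAG, and again the siGGGGGC and siNT1 libraries overlapped. The log2 fold changes of POLR2H and POLR2L were 0.17 (SE 0.14) and 0.34 (SE 0.16), with edgeR adjusted p-values of 0.441 and 0.188. With 1 library left out, that of POLR2H lay between 0.08 and 0.25 and that of POLR2L between 0.17 and 0.51.

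In HeyA8 cells POLR2E and POLR2K had log2 fold changes close to those of PC3 cells, which did not pass the test over all 8 libraries. POLR2E measured 139 and 158 CPM in mock cells, 170 and 169 after siNT1, 62.7 and 30.8 after siGGGGGC, and 207 and 124 after siCAG. The siGGGGGC libraries were again the lowest, and the 48 h library lay below the 24 h library. The log2 fold change was -1.93 (SE 0.35, edgeR adjusted p = 0.188), and POLR2E ranked 95 from the lowest of 13872 genes tested. POLR2K measured 89.7 and 84.8 CPM in mock cells, 89.2 and 78.9 after siNT1, 36.3 and 22.3 after siGGGGGC, and 29.6 and 90.9 after siCAG. Its siGGGGGC libraries lay below mock and siNT1, but the siCAG library of 24 h was as low. The log2 fold change of POLR2K was -1.51 (SE 0.52, edgeR adjusted p = 0.450), and it ranked 241 from the lowest. None of the 13872 genes passed in this comparison (0% of genes; edgeR), where 1352 had an unadjusted p under 0.05 (9.75%), among them the 3 subunits POLR2E, POLR2K and POLR3D. DESeq2 passed 2.29% of genes, with POLR2E as the 1 subunit among them (adjusted p = 0.000128). Without the siCAG libraries, an alternative chosen after seeing the data, edgeR passed 3.52% of genes and the 3 subunits POLR2E, POLR2K and POLR3D, with log2 fold changes of -1.90, -1.54 and -0.82 and adjusted p-values of 0.0183, 0.00857 and 0.0398.

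The remaining shared subunits of HeyA8 cells did not pass after siGGGGGC. POLR2F measured 29.8 and 33.7 CPM in mock cells, 41.8 and 36.5 after siNT1, 32.1 and 39.1 after siGGGGGC, and 50.2 and 22.2 after siCAG. POLR2H measured 75.4 and 97.2 CPM in mock cells, 84.3 and 116 after siNT1, 79.6 and 78.4 after siGGGGGC, and 76.9 and 47.4 after siCAG. POLR2L measured 73.3 and 109 CPM in mock cells, 89.1 and 114 after siNT1, 81.8 and 128 after siGGGGGC, and 130 and 70.7 after siCAG. For POLR2F and POLR2L the siGGGGGC and siNT1 libraries overlapped, while both siGGGGGC libraries of POLR2H lay below both siNT1 libraries and within the range of mock. The log2 fold changes after siGGGGGC were -0.12 for POLR2F, -0.34 for POLR2H and 0.03 for POLR2L, and none passed (edgeR adjusted p = 0.957, 0.788 and 0.992). With 1 library left out, that of POLR2H lay between -0.62 and -0.03.

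**Figure D2:**
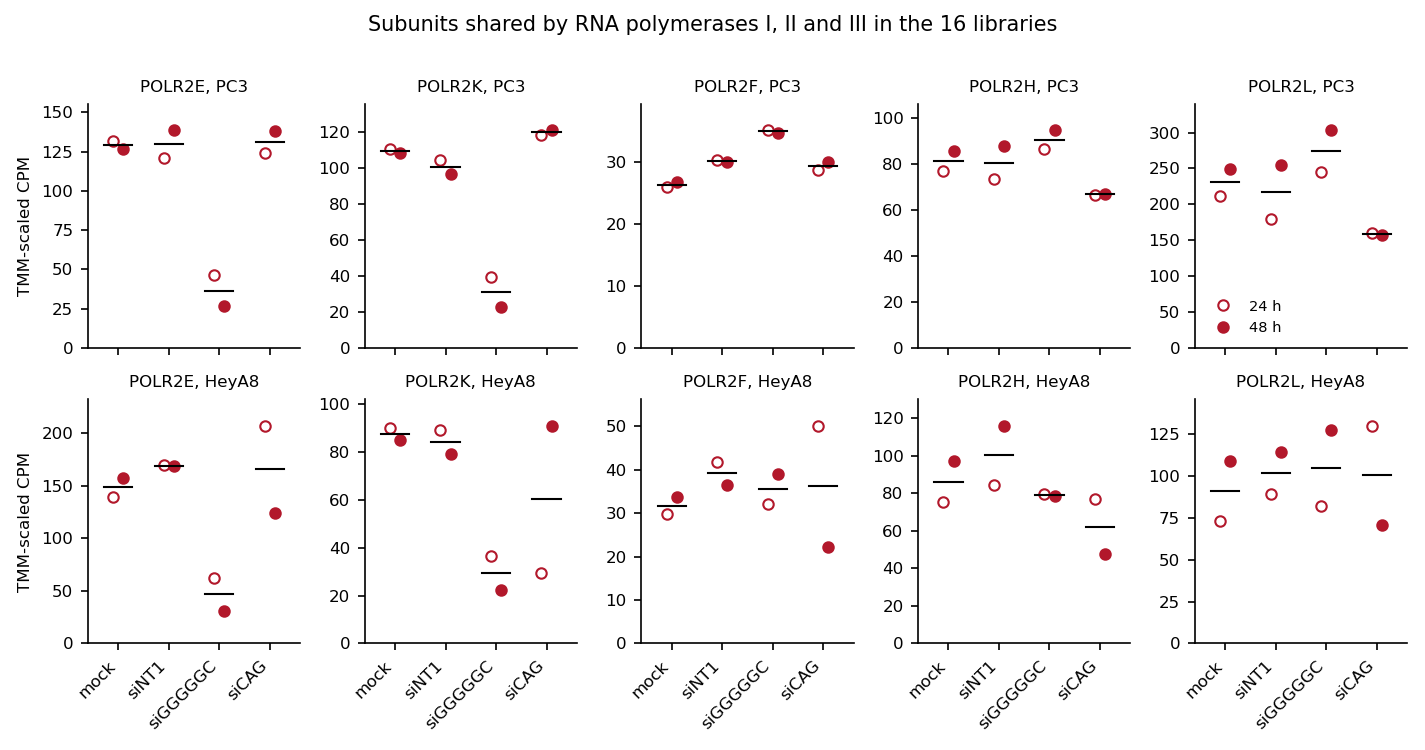
TMM-scaled CPM of the 5 subunits shared by polymerases I, II and III in PC3 cells (top) and HeyA8 cells (bottom), with open points for 24 h, filled points for 48 h (1 library each) and a line at the mean of the pair. POLR2E and POLR2K lie below mock and siNT1 in both siGGGGGC libraries of both lines, and in HeyA8 cells the siCAG library of 24 h is low for POLR2K too.

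The siGGGGGC libraries were lower at 48 h than at 24 h for POLR2E and POLR2K in both lines. The log2 ratio to siNT1 of the same time for POLR2E of PC3 cells was -1.39 at 24 h and -2.39 at 48 h, and that of HeyA8 cells was -1.43 and -2.46. For POLR2K it was -1.40 and -2.09 for PC3, and -1.29 and -1.82 for HeyA8 cells. Each of these ratios rests on 1 library against 1 and has no test. The responses of the lines were compared by an interaction over all 16 libraries. The PC3 minus HeyA8 difference of the log2 fold changes was 0.07 for POLR2E (SE 0.47, edgeR adjusted p = 1) and -0.21 for POLR2K (SE 0.59, edgeR adjusted p = 0.995), and these standard errors leave room for sizeable differences. No gene of the 15887 passed this interaction in edgeR (0% of genes), where 1054 had an unadjusted p under 0.05 (6.63%), among them the 1 subunit POLR3B, and DESeq2 passed 0.120% of genes and none of the subunits.

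The proportions among the shared subunits differed between siNT1 and siGGGGGC libraries. Per kb of exons, POLR2E stood at 1.07 and 1.02 times the median of POLR2F, POLR2H and POLR2L in PC3 cells after siNT1 (24 and 48 h) and at 0.345 and 0.180 times after siGGGGGC. In HeyA8 cells the same ratio was 1.30 and 0.945 after siNT1 and 0.510 and 0.255 after siGGGGGC. The median of POLR2F, POLR2H and POLR2L was the level of POLR2H in every library, so the ratio rests on that gene alone. POLR2H stood at 20.2 and 24.9 CPM per kb after siNT1 and 24.7 and 26.7 after siGGGGGC in PC3 cells. In HeyA8 cells it stood at 29.3 and 40.2 after siNT1 and 28.2 and 27.8 after siGGGGGC. POLR2K stood at 2.68 and 2.08 times this median after siNT1 and at 0.861 and 0.452 times after siGGGGGC in PC3 cells, whereas in HeyA8 cells it stood at 2.0 and 1.28 times after siNT1 and 0.860 and 0.536 times after siGGGGGC. After siGGGGGC, POLR2K thus ranked 3 and POLR2E ranked 4 of the 5 shared subunits in all 4 libraries, with POLR2F below them. This order depends on the length used. With the longest transcript as the length, POLR2E lay below POLR2F in both PC3 libraries (14.5 against 15.2 CPM per kb at 24 h and 8.20 against 14.9 at 48 h) and in the HeyA8 library of 48 h (12.1 against 21.1), and above it in that of 24 h (24.5 against 17.3).

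POLR2E carries the seed match GCCCCC at 3 places in its annotated 3′ UTR, all inside the counted gene. They are shown because POLR2E is the shared subunit with the lowest fold change in both lines. Each line below gives the match in capitals within its transcript sequence (GENCODE v44, hg38, 5′ to 3′, minus strand), counted from the stop codon outwards.
POLR2E match nearest the stop codon (chr19:1088635-1088664): tgccagaatccgGCCCCCacagctctcacg
POLR2E middle match (chr19:1088482-1088511): agaaggaacaagGCCCCCagagggaggtca
POLR2E match farthest from the stop codon (chr19:1088308-1088337): tgatgcgtggcgGCCCCCgcccggcctcgg
The matches start 83, 236 and 410 bases after the stop codon, and the base that follows is A for the nearest and the middle match and G for the farthest. POLR2F holds a match as well, 610 bases after the stop codon of the transcript with its longest 3′ UTR, on the plus strand of chromosome 22. It is shown for contrast, as its log2 fold change was 0.21 in PC3 and -0.12 in HeyA8 cells and passed in neither.
POLR2F match (chr22:37968313-37968342): ctgcctacccctGCCCCCatggctctgtcc
POLR2K has 1 match in its longest annotated 3′ UTR and 0 in the transcript whose coding sequence is longest, and that of POLR2F is likewise absent from such a transcript. POLR2H and POLR2L have 0 matches in either. A match in the annotation is a description and does not show that the site is present in the mRNA of these cells or that it is used. The study placed the 3′ UTRs of POLR2E and POLR2K in reporters in another cell line. It reported that versions with mutated GCCCCC matches resisted siGGGGGC more than the intact ones. The counts used here do not test this.

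Across the subunits, 29 have an annotated 3′ UTR (that of POLR2A ends at its stop codon in the annotation used), and 9 of these hold GCCCCC on the transcript strand, 31.0% against 32.6% of all PC3 genes tested with a 3′ UTR. The 9 are POLR2E and POLR1A with 3 matches, POLR3D with 2, and POLR2F, POLR2K, POLR1C, POLR1D, CD3EAP and POLR3F with 1. Their median log2 fold change after siGGGGGC was -0.09 for PC3 cells, where that of the 20 subunits without a match was 0.16, and -0.33 against -0.01 for HeyA8 cells. For all genes tested, the medians with and without a match were -0.08 and 0.04 for PC3 and -0.10 and 0.04 for HeyA8 cells. With the transcript whose coding sequence is longest, 5 subunits held a match, without POLR2K (17.2%, against 28.2% of all PC3 genes), and the medians with and without were -0.20 and 0.16 for PC3 and -0.83 and -0.03 for HeyA8 cells. Those of all genes were then -0.10 and 0.04 for PC3 and -0.12 and 0.04 for HeyA8 cells. The number of matches did not order the changes. POLR1A, with as many matches as POLR2E, had a log2 fold change of -0.04 for PC3 and -0.33 for HeyA8 cells, and its matches lie beyond the end of the gene as it was counted, as do those of POLR1C and POLR1D. POLR3F, which holds a match inside its counted gene, had 0.37 and 0.48. CD3EAP, whose match begins 4 bases after the stop codon, had -0.58 and -1.02, and 49.8% of its exonic bases in the annotation are shared with ERCC1 on the opposite strand.

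**Figure D3:**
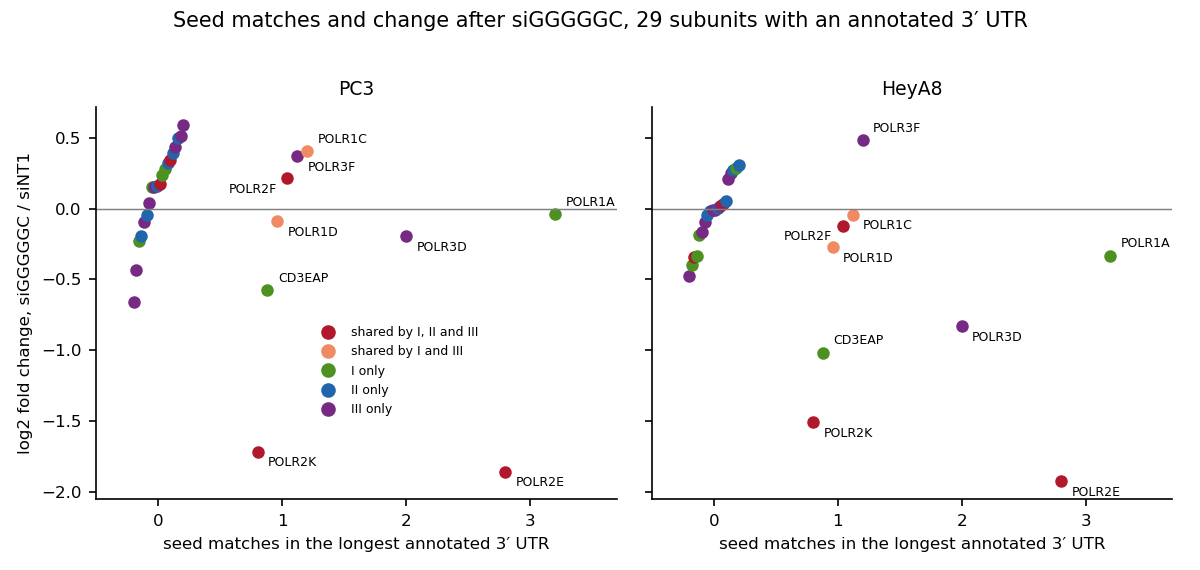
Log2 fold change of each subunit after siGGGGGC (vertical axis) against the number of GCCCCC seed matches in its longest annotated 3′ UTR (horizontal axis, points spread sideways for legibility) in PC3 (left) and HeyA8 cells (right), for the 29 subunits with an annotated 3′ UTR. POLR2E and POLR2K lie apart at the bottom in both lines, while POLR1A, with 3 matches, lies near 0 in PC3 cells.

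By class, the subunits that passed as lower in PC3 cells against siNT1 were the shared POLR2E and POLR2K. With mock as the control 4 subunits passed (21.1% of genes), POLR2E, POLR2K and POLR3G lower and POLR2D higher. The median log2 fold change after siGGGGGC was 0.17 for the 5 shared subunits and 0.15 for the 23 subunits of 1 polymerase, where the median of all genes tested was 0.003. With 1 library left out these medians lay between 0.08 and 0.19 for both sets. Without the 24 h siNT1 library both were 0.08, without the 24 h siGGGGGC library they were 0.15 and 0.08, and without that of 48 h their order turned (0.13 and 0.16). The mean of the shared subunits was -0.57, which rests on the pair that fell, whereas that of the others was 0.09. Of the shared subunits, 2 of 5 passed (both lower, as did 6.00% of all genes). Of the subunits of 1 polymerase, 1 of 23 passed (4.35%, higher, as did 3.67% of all genes), and 0 of the 2 subunits shared by polymerases I and III did. These counts are a description and do not test a difference between the classes. In HeyA8 cells the medians were -0.34 for the shared subunits and -0.01 for those of 1 polymerase, and the means -0.77 and -0.08. Within the second set they were -0.33 for polymerase I (5 of 6 below 0, where 49.6% of all genes were), 0.06 for II and -0.01 for III, beside 0.004 for all genes. At single times, the median log2 ratio of the polymerase I subunits to siNT1 was 0.02 at 24 h (3 of 6 below 0) and -0.66 at 48 h (5 of 6 below 0), that of the shared subunits was -0.36 and -0.53, and that of all genes was 0.03 at both times (CPM scaled over 16 libraries, 1 library against 1, no test). The HeyA8 median of the shared subunits was -0.62 without the 24 h siNT1 library, -0.10 without that of 48 h, and -0.12 with mock as the control, where subunits of 1 polymerase came to -0.09, 0.02 and -0.08. POLR1C and POLR1D, which together form the core on which polymerases I and III assemble, had log2 fold changes of 0.41 and -0.09 for PC3, and of -0.04 and -0.27 for HeyA8 cells.

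None of the subunits of polymerase I passed after siGGGGGC in either line. POLR1A, its largest catalytic subunit, measured 151 and 132 CPM in mock PC3 cells, 139 and 139 after siNT1, 160 and 114 after siGGGGGC, and 146 and 152 after siCAG. In HeyA8 cells it measured 127 and 124 CPM in mock cells, 119 and 129 after siNT1, 121 and 81.7 after siGGGGGC, and 163 and 85.3 after siCAG. The siGGGGGC libraries of 24 and 48 h lay above and below siNT1 in PC3 cells. The low one of HeyA8 cells was that of 48 h. The lowest of the class was CD3EAP, which belongs to the initiation and elongation dimer of polymerase I. Its CPM after siGGGGGC was 14.6 at 24 h and 5.60 at 48 h in PC3 cells, where siNT1 gave 14.2 and 13.9, and 23.2 and 6.32 in HeyA8 cells, where siNT1 gave 27.9 and 23.5. Its low values thus lay at 48 h in both lines, and the change did not pass over the 8 libraries of either line (HeyA8 log2 fold change -1.02, SE 0.43, edgeR adjusted p = 0.512). When the 24 h siGGGGGC library of PC3 cells was left out, the edgeR fit passed 6 subunits (23.5% of genes), and CD3EAP was among them. It was also among the 4 subunits that passed in HeyA8 cells when the 4 siNT1 and siGGGGGC libraries were fitted alone (8.86% of genes).

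Subunits of polymerase II were mostly above siNT1 in PC3 cells, and none passed over the 8 libraries of the line in edgeR. Of these 7, 5 had a positive log2 fold change after siGGGGGC in PC3 cells, as had 18 of all 30 subunits. Of all genes tested, 49.8% had a negative one. The median of polymerase II was 0.33, with a range from -0.19 (POLR2J) to 0.50 (POLR2D). POLR2A, its largest catalytic subunit with the C-terminal repeat domain, measured 179 and 163 CPM in mock PC3 cells, 142 and 148 after siNT1, 167 and 213 after siGGGGGC, and 166 and 172 after siCAG. Both siGGGGGC libraries lay above both siNT1 libraries, and the log2 fold change was 0.39 (SE 0.16, edgeR adjusted p = 0.141). In fits that lacked 1 library, this change of POLR2A ran from 0.15 to 0.55, and 0.55 came without the siGGGGGC library of 24 h. In HeyA8 cells POLR2A measured 374 and 374 CPM in mock cells, 327 and 322 after siNT1, 355 and 388 after siGGGGGC, and 468 and 306 after siCAG, a log2 fold change of 0.20 after siGGGGGC (SE 0.24, edgeR adjusted p = 0.851). POLR2D, a subunit of the stalk, had 80.2 and 91.1 CPM after siGGGGGC in PC3 cells against 58.2 and 63.1 after siNT1, with an edgeR adjusted p of 0.0750, and DESeq2 passed it (5 subunits and 18.9% of genes in all). POLR2D also passed in edgeR with mock as the control (adjusted p = 0.0305; 21.1% of genes). Its log2 fold change against siNT1 ran from 0.35 to 0.58 in fits that lacked 1 library. The range of the class in HeyA8 cells was -0.04 (POLR2J) to 0.31 (POLR2D). POLR2I has the largest share of exonic bases that overlap other genes among the 30 subunits, 77.2%, which makes its count uncertain.

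Among subunits of polymerase III, POLR3B passed in PC3 cells, near the threshold. POLR3B, the partner of the largest subunit in the active site (chr12:106357658-106510198, hg38), measured 60.8 and 56.5 CPM in mock PC3 cells, 54.7 and 53.4 after siNT1, 81.7 and 81.0 after siGGGGGC, and 51.9 and 47.3 after siCAG. The siGGGGGC libraries were the highest and close to each other, with a log2 fold change of 0.59 (SE 0.14, edgeR adjusted p = 0.0445), or 1.51-fold. This call was lost in 9 of 12 alternatives, with log2 fold changes between 0.47 and 0.62 over all 12. The edgeR adjusted p was 0.0510 with the filter of 10 counts, 0.0517 against mock, 0.0596 without the siCAG libraries, 0.0621 without the term for time, 0.0911 with 16 libraries and 0.150 with 4. It was 0.0933 without the siGGGGGC library of 48 h and 0.287 and 0.333 without the siNT1 library of 24 or 48 h. In HeyA8 cells POLR3B measured 42.1 and 38.3 CPM in mock cells, 36.8 and 36.4 after siNT1, 40.7 and 33.8 after siGGGGGC, and 27.6 and 22.6 after siCAG. There the siGGGGGC and siNT1 libraries overlapped, with a log2 fold change of 0.02 (SE 0.21, edgeR adjusted p = 0.991), and the interaction between the lines did not pass either (unadjusted p = 0.0420, edgeR adjusted p = 0.746). POLR3A, the largest catalytic subunit, measured 415 and 414 CPM in mock PC3 cells, 450 and 534 after siNT1, 537 and 554 after siGGGGGC, and 409 and 481 after siCAG. In HeyA8 cells it measured 73.7 and 73.8 CPM in mock cells, 83.1 and 83.6 after siNT1, 82.1 and 74.2 after siGGGGGC, and 101 and 75.6 after siCAG, and its log2 fold changes after siGGGGGC were 0.15 for PC3 and -0.10 for HeyA8 cells. POLR3D, which belongs to a dimer that acts in initiation and termination, had 16.7 and 14.0 CPM after siGGGGGC in HeyA8 cells against 28.9 and 25.4 after siNT1 and 19.1 and 18.8 in mock cells, and 29.1 and 15.4 after siCAG. The siNT1 libraries and the siCAG library of 24 h were its highest. The log2 fold change of -0.83 against siNT1 (SE 0.28, edgeR adjusted p = 0.444) became -0.32 against mock. In PC3 cells the remaining members ranged from -0.66 (POLR3G) to 0.52 (POLR3K).

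**Figure D4:**
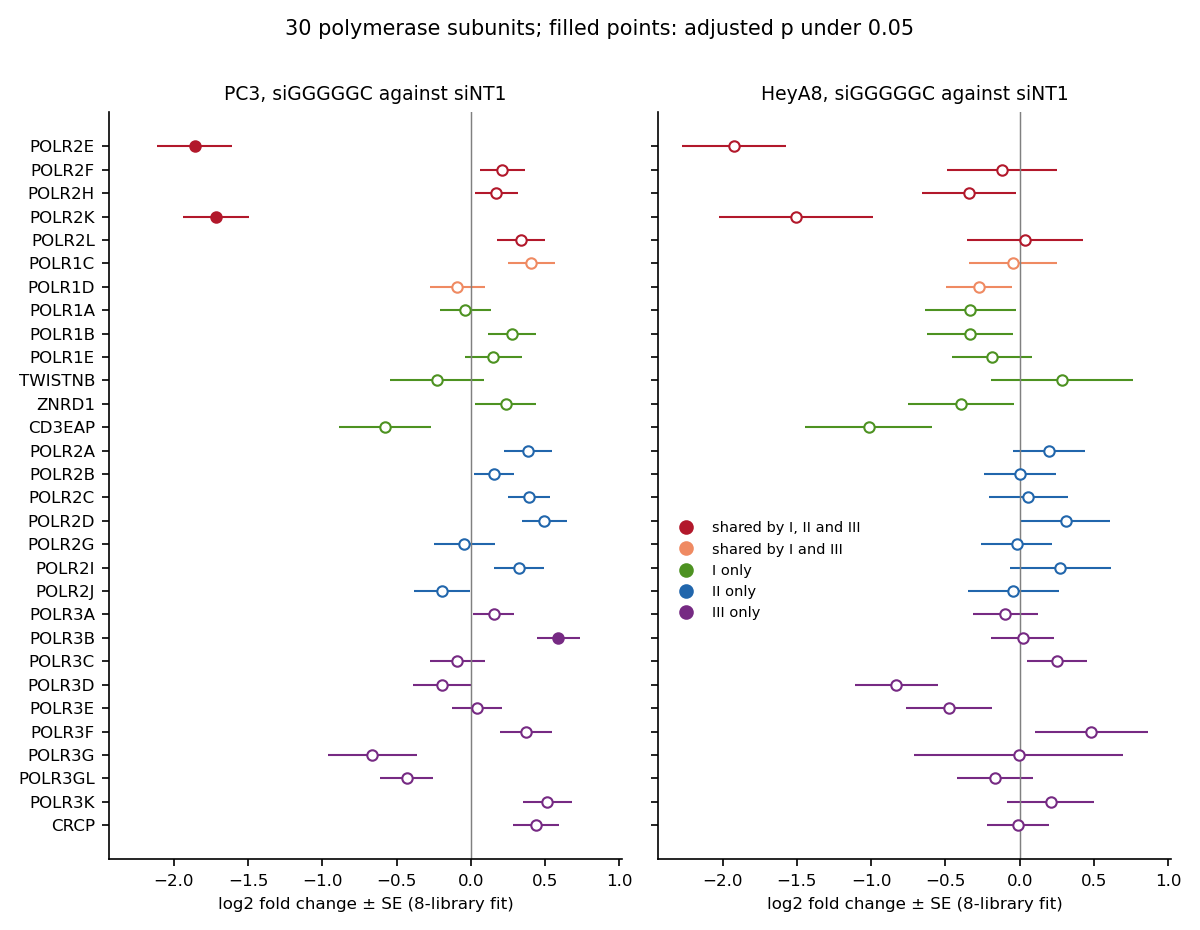
Log2 fold change after siGGGGGC against siNT1 (horizontal axis, with SE bars from the 8-library edgeR fit) for the 30 subunits in PC3 (left) and HeyA8 cells (right), coloured by class, with filled points for an adjusted p under 0.05. POLR2E and POLR2K lie below -1.5 in both lines, and POLR3B is the filled point above 0 in PC3 cells.

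After siCAG, POLR2E and POLR2K were near their siNT1 levels in PC3 cells, and none of the subunits passed there. In edgeR, 1.20% of the 15136 genes passed (1.16% lower and 0.0396% higher) and 0 of 30 subunits, with 3 subunits at an unadjusted p under 0.05 (POLR2L, POLR1E and POLR3GL), where 13.5% of all genes had one. DESeq2 passed 3.78% of genes and also 0 subunits. POLR2E had a log2 fold change of 0.01 (SE 0.24) and POLR2K of 0.26 (SE 0.22), with edgeR adjusted p-values of 0.987 and 0.633. All 6 subunits of polymerase I had a positive log2 fold change, from 0.03 (TWISTNB) to 0.58 (CD3EAP), with a median of 0.37, and none of them passed. Of all genes, 50.7% had a negative one. The medians were 0.09 for polymerase II, 0.23 for polymerase III and -0.04 for the shared subunits, beside -0.006 for all genes tested. The median of the shared subunits was -0.19 without the 24 h siNT1 library, -0.18 without the 48 h siCAG library, and 0.02 with mock as the control. With the 4 siNT1 and siCAG libraries fitted alone, 5 subunits passed, POLR2L lower and POLR1E, CD3EAP, POLR3G and POLR3GL higher, among 2346 of 14669 genes (16%).

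In HeyA8 cells the siCAG libraries of 24 and 48 h differed from siNT1 in opposite directions for most subunits. At 24 h, 21 of 30 subunits lay above the siNT1 library of that time, and at 48 h, 25 of 30 lay below it, where 6898 and 6860 of the 13872 genes tested did. The direction was opposite at the 2 times for 20 of 30 subunits (66.7%), against 33.3% of all 13872 genes tested, whereas in PC3 cells it was so for 6 of 30 subunits (20%) and 25.8% of all genes. The median log2 ratio of the subunits was 0.20 at 24 h and -0.52 at 48 h, where that of all genes tested was -0.005 and 0.012. With CPM scaled over all 16 libraries, a choice added after seeing the data, 22 subunits lay above siNT1 at 24 h and 21 below it at 48 h, the direction was opposite for 21 (70%, against 34.1% of all genes), and the medians were 0.38 and -0.43, beside 0.17 and 0.10 for all genes. These counts compare 1 library with 1 and have no test. POLR3G, one of an alternative pair of polymerase III subunits, was the widest case, with 88.8 and 59.2 CPM after siNT1 and 17.4 and 82.1 after siCAG. TWISTNB, a stalk subunit of polymerase I, had 73.0 and 58.6 CPM after siNT1 and 18.9 and 56.2 after siCAG. Both were low at 24 h alone, as was POLR2K. POLR2H, POLR2D and POLR3K showed the reverse order, with log2 ratios of -0.13, -0.31 and -0.46 at 24 h and of -1.29, -1.26 and -1.40 at 48 h. POLR3F was low at both times, with 17.7 and 13.4 CPM after siNT1 and 4.14 and 8.66 after siCAG, and POLR3C was high at both, with 40.5 and 33.2 after siNT1 and 57.1 and 52.5 after siCAG.

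Over both times, the edgeR fit of HeyA8 cells passed 7.81% of genes after siCAG (4.93% lower and 2.88% higher) and 0 of 30 subunits. Of the subunits, 5 had an unadjusted p under 0.05 (POLR3F, POLR3K, POLR2D and POLR3B lower, POLR3C higher), where 29.5% of all genes had one. By class, the medians were -0.27 for polymerase I (5 of 6 below 0), 0.21 for II, -0.25 for III and -0.15 for the shared subunits, beside -0.01 for all genes. That of the shared subunits was -0.79 without the 24 h siCAG library, 0.14 without that of 48 h, -0.33 without the 24 h siNT1 library and 0.10 with mock as the control. The median of the subunits of 1 polymerase, -0.17, also turned, at -0.43 without the 24 h siCAG library, 0.15 without that of 48 h and 0.06 without the 48 h siNT1 library. POLR3F had the lowest log2 fold change, -1.30 (SE 0.39, edgeR adjusted p = 0.0855). With 1 library left out it lay between -2.03 and -0.72. DESeq2 passed 19.2% of genes and 2 subunits, POLR3F and POLR3K. The result rests on which siCAG library is used. Without that of 24 h, 12 subunits passed (10 lower; 31.5% of genes), and without that of 48 h, 10 passed (5 lower and 5 higher; 32.9% of genes). The interaction between the lines passed 0.636% of 15887 genes in edgeR (0.384% higher and 0.252% lower in PC3 cells) and 0 of 30 subunits, with 1 at an unadjusted p under 0.05 (POLR3K), against 14.6% of all genes, and DESeq2 passed 4.22% of genes and 0 subunits too. Values of RNA quality and cell state are not given in the sources used here, and their part in the split between the times was not tested.

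**Figure D5:**
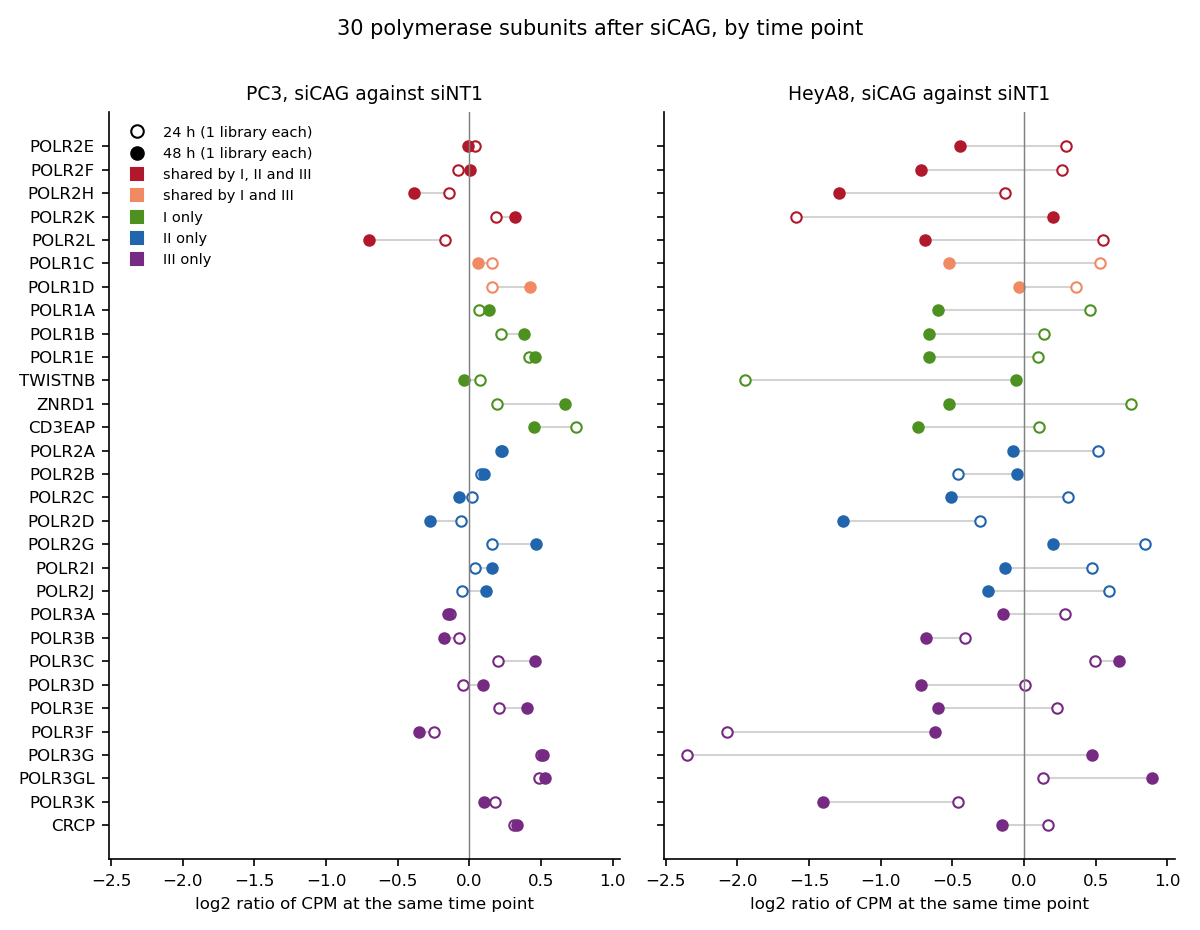
Log2 ratio of siCAG to siNT1 at the same time point (horizontal axis, 1 library against 1, no test) for the 30 subunits in PC3 (left) and HeyA8 cells (right), with open points for 24 h and filled points for 48 h, coloured by class. The pairs lie close together in PC3 cells and far apart in HeyA8 cells, where 25 of 30 filled points lie below 0.

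None of the subunits passed for the control siRNA or for time. In siNT1 against mock, 0.231% of genes passed in PC3 cells (0.205% higher and 0.0264% lower) and none in HeyA8 cells (0%; edgeR, with 177 genes, or 1.28%, at an unadjusted p under 0.05). None of the subunits passed in either line, with 1 at an unadjusted p under 0.05 in PC3 cells, where 9.01% of all genes had one, and 0 in HeyA8 cells. DESeq2 passed 1.76% and 0.00721% of genes and 1 and 0 subunits. That 1 was POLR3G in both tools. It measured 85.7 and 92.6 CPM in mock PC3 cells, 61.2 and 27.8 after siNT1, 32.9 and 21.2 after siGGGGGC, and 86.8 and 39.7 after siCAG. The siNT1 libraries lay below mock and differed from each other more than 2-fold, with a log2 fold change of -1.15 (SE 0.30, edgeR adjusted p = 0.265). With 1 library left out it lay between -1.65 and -0.57. POLR3G was also the lowest of the 30 subunits in HeyA8 cells, at -0.78, and did not pass. There it measured 131 and 125 CPM in mock cells and 88.8 and 59.2 after siNT1. It was among the 5 subunits that passed there with the 4 mock and siNT1 libraries fitted alone (edgeR, 11.8% of genes). Over all treatments, 48 h against 24 h passed 0.0264% of genes for PC3, 0% for HeyA8 cells and none of the subunits, with 2 and 1 subunits at an unadjusted p under 0.05 (edgeR), against 13.4% and 6.34% of all genes, and DESeq2 passed 1.45% and 0.440% of genes and none of the subunits.

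The lines themselves differed in several subunits before any siRNA. In mock PC3 against mock HeyA8 cells, 10 of 30 subunits passed (33.3%), a smaller share than the 45.5% of all 15887 genes. Of these 10, 2 were higher and 8 lower in PC3 cells, where 25.6% of genes were higher and 19.9% lower. The largest difference was in POLR3A, at 23.2 CPM per kb at both times in PC3 and 5.16 and 5.09 in HeyA8 cells, a log2 fold change of 2.02 (SE 0.22, edgeR adjusted p = 3.13e-05), or 4.05-fold. POLR2B, the partner of POLR2A in the active site, was higher in PC3 cells as well, at 63.9 and 63.4 CPM per kb against 36.1 and 35.1 (log2 fold change 0.85, SE 0.21, edgeR adjusted p = 0.00616). POLR2A was the reverse, at 19.0 and 17.2 CPM per kb in PC3 and 49.5 and 48.8 in HeyA8 cells (log2 fold change -1.57, SE 0.25, edgeR adjusted p = 0.000457). In each of these genes the lines did not overlap. The ratio of the active site pair therefore differed between the lines, with POLR2B above POLR2A per kb in PC3 cells and below it in HeyA8 cells. The other genes lower in PC3 cells were CD3EAP, POLR1E and ZNRD1 of polymerase I, POLR1D, POLR3GL, POLR2C and POLR2D, with log2 fold changes from -1.35 (CD3EAP) to -0.77 (POLR2D), where the median of all genes was 0.09. Of their exonic bases, 49.8% for CD3EAP, 24.5% for ZNRD1 and 21.1% for POLR3GL overlap other genes, so these counts are less certain. None of the 5 shared subunits passed, with POLR2L nearest (log2 fold change 0.97, edgeR adjusted p = 0.0559, and passed by DESeq2, as 1 of 13 subunits and 47.9% of genes). Without the PC3 library of 24 h, 3 subunits passed (26.8% of genes), and without that of 48 h, 5 did (34.9%). Without the HeyA8 library of 24 h, 7 passed (26.3%), and without that of 48 h, 5 did (34.9%), with POLR3A, POLR2A and POLR1D among them each time.

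POLR3G and POLR3GL are alternative versions of a polymerase III subunit, and POLR3G is known as the form of stem and tumour cells. Per kb of exons, POLR3G exceeded POLR3GL 3.58- and 3.39-fold for mock PC3 and 3.10- and 2.60-fold for mock HeyA8 cells. The ratio was lower after siNT1, at 2.19 and 0.913 for PC3 and 2.21 and 1.61 for HeyA8 cells. After siGGGGGC it was 1.53 and 0.976 for PC3 and 3.06 and 1.29 for HeyA8 cells, and after siCAG 2.21 and 0.905 for PC3 and 0.395 and 1.21 for HeyA8 cells. The HeyA8 siCAG library of 24 h was the lowest of all 16. POLR3GL itself had a log2 fold change of -0.43 in PC3 cells after siGGGGGC (SE 0.18, edgeR adjusted p = 0.138). The ratio is a description of single libraries, and the annotation holds pseudogenes of POLR3G, as it does of POLR2K, POLR2L and POLR3K, so reads could be split between copies. In addition, 21.1% of the exonic bases of POLR3GL are shared with another gene, so its count may hold reads of that gene.

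Few other genes of the transcription machinery passed after siGGGGGC or siCAG. Between the mock lines, 28 of 79 tested passed (35.4%, against 45.5% of all genes), 5 higher and 23 lower in PC3 cells. Of 80 such genes listed (other polymerase genes, initiation, elongation, termination and assembly factors), 79 were tested and 6 passed in PC3 cells after siGGGGGC (7.59%, against the 9.67% of all genes), 2 lower and 4 higher. TAF1D, a subunit of the complex that directs polymerase I to its promoter, was the lowest to pass, with 45.02 and 27.4 CPM after siNT1 and 17.9 and 13.0 after siGGGGGC (log2 fold change -1.20, SE 0.18, edgeR adjusted p = 0.0154). The other lower gene was POLR2J3, a copy of POLR2J whose reads may be shared with its paralogs (-0.82, edgeR adjusted p = 0.0421). Of 15 factors that assemble the polymerases, 2 passed, both higher, namely RUVBL1 and RUVBL2, the paired ATPases of an assembly chaperone. RUVBL2 had 92.5 and 87.0 CPM after siNT1 and 140 and 156 after siGGGGGC (log2 fold change 0.72, SE 0.14, edgeR adjusted p = 0.0289), and RUVBL1 had a log2 fold change of 0.55 (edgeR adjusted p = 0.0497). The siNT1 and siGGGGGC libraries did not overlap for any of the 6 genes that passed, which were selected by a test of these same libraries. GTF3C4, of the complex that recruits polymerase III to tRNA genes, rose 2.07-fold (edgeR adjusted p = 0.0290), and RTF1, of the elongating polymerase II complex, had a log2 fold change of 0.55 (edgeR adjusted p = 0.0473). In HeyA8 cells none of the 79 passed after siGGGGGC, with 4 at an unadjusted p under 0.05 (edgeR), against 9.75% of all genes. After siCAG, 1 of 79 passed there (1.27%, against the 7.81% of all genes), TBP, the factor that initiation by each of the polymerases uses, with 26.9 and 24.3 CPM after siNT1 and 13.0 and 12.6 after siCAG (log2 fold change -1.002, SE 0.22, edgeR adjusted p = 0.0440).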

How the data were processed

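RNA of 2 human cell lines was sequenced in 16 libraries with a total RNA kit. Per the study's methods and the labels, reads were trimmed and aligned to hg38 by the authors (STAR is named in the labels), and HTSeq then assigned them to genes. The deposited values are raw counts per gene symbol, 1 column per library. How strand was treated is not given in the sources used here, so reads of overlapping antisense genes may be mixed. Totals per library were 27937092 to 31790209, and precision beyond counting error rests on 2 libraries per group.

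Each gene was tested by edgeR 4.0.16 under R 4.3.3 (filterByExpr by treatment, TMM, quasi-likelihood, Benjamini-Hochberg), with treatment and time point as terms, over the 8 libraries of a line or, between lines, all 16. Alternatives were RLE size factors, DESeq2 1.42.0, a minimum of 10 total counts as the filter, leaving out the term for time, only the 4 libraries of a pair of treatments, 1 fit over 16 libraries, mock as control and each library left out; fits without siCAG, and single-time directions scaled over 16 libraries, were added after seeing the data. Ratios at single times used 0.1 CPM added to both values. For 3′ UTRs, GENCODE v44 (hg38) was matched by symbol (23161 direct, 1384 by an older symbol through the RefSeq gene table, 1940 unmatched), using the transcript with the longest 3′ UTR. Of the file's gene annotation columns, start and end were used to place genes and seed matches, and its length column was not used.

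The members and gene lists were chosen with earlier results of these data known. Any member could be named. Values for every library were given for members that passed after siGGGGGC or siCAG, the shared subunits and POLR1A, POLR2A and POLR3A. Other machinery genes were named if they passed after siGGGGGC or siCAG, at most 3 per list. Members outside this rule were named for their values.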

Additional observations from a re-analysis of the deposited data

How the results depend on the processing

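With no replicate block, that is no term for time, POLR2E and POLR2K passed in PC3 cells after siGGGGGC and POLR3B did not (2 subunits, against 3, beside 4.13% of genes). The count stayed at 0 for siGGGGGC in HeyA8 cells (0.0216% of genes). It also stayed at 0 for siCAG in PC3 (1.09%) and HeyA8 cells (8.56%), and for siNT1 against mock in PC3 (0.0396%) and HeyA8 cells (0%). The comparisons between lines were not fitted this way. The replicate numbers stand for 24 and 48 h. The count after siGGGGGC in PC3 cells was 5 with DESeq2, 1 with 1 fit over 16 libraries, 4 against mock, and 0 to 6 with 1 library left out. In HeyA8 cells it was 0, and 1 with DESeq2, 4 (POLR2E, POLR2K, POLR3D and CD3EAP) with the 4 libraries alone, 1 with 16 libraries and 3 without siCAG. After siCAG it was 5 with 4 libraries alone in PC3 cells, and for HeyA8 cells 2 with DESeq2, 3 with 16 libraries and 0 to 12 with 1 library left out, with 0 to 5 for the interaction (2 among 9.24% of genes without the siCAG library of 24 h and 5 among 6.36% without that of 48 h, both of HeyA8 cells). For siNT1 against mock it was 1 with DESeq2 in PC3 and 5 with the 4 libraries alone in HeyA8 cells (11.8% of genes), and between the mock lines 3 to 7 with 1 library left out. Where 1 library remained in a group, it was assumed to vary like the others. The cause was not tested. Of all genes, 1463 passed in PC3 cells after siGGGGGC, and 2859 did with DESeq2, 625 with no term for time, 438 with 4 libraries, 333 with 16 libraries, 3200 against mock, and 0 to 3702 with 1 library left out. In HeyA8 cells 0 passed, and 318 did with DESeq2, 1180 with 4 libraries, 116 with 16 libraries, 3 with no term for time and 477 without siCAG. After siCAG, 182 passed in PC3 cells, with 572 under DESeq2, 2346 with 4 libraries, 98 with 16, 391 against mock and 30 to 125 with 1 library left out, and 1083 in HeyA8 cells, with 2665 under DESeq2, 580 with 4 libraries, 3329 with 16 and 42 to 4690 with 1 library left out. POLR2E stayed lower after siGGGGGC in every alternative, between -2.36 and -1.49 (log2) in PC3 and -2.37 and -1.53 in HeyA8 cells, and POLR2K between -2.14 and -1.41 and between -2.17 and -1.02.

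In HeyA8 cells after siGGGGGC, small changes turned sign. Against mock, POLR2F was 0.17 and POLR3B -0.11. With 1 library left out, POLR2F lay between -0.483 and 0.188, POLR2L between -0.297 and 0.312 and POLR3B between -0.091 and 0.131, the turned values being POLR2L and POLR3B without the siNT1 library of 24 h (-0.081 and -0.091), POLR2F and POLR3B without the siGGGGGC library of 24 h (0.188 and -0.046) and POLR2L without that of 48 h. As means in place of medians, the shared subunits came to -0.57 (PC3, siGGGGGC), -0.092 (PC3, siCAG) and -0.77 (HeyA8, siGGGGGC), and subunits of 1 polymerase to 0.18 (PC3, siCAG). With the longest transcript as the length, median levels in mock PC3 and HeyA8 cells were 10.5 and 13.5 CPM per kb for polymerase I, 37.4 and 29.5 for II, 11.9 and 10.6 for III, 12.8 and 19.6 for those shared by I and III, and 40.1 and 57.1 for the shared subunits. With the transcript of the longest coding sequence, 5 members held GCCCCC, not 9. Each group has 2 libraries, which limits the precision.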
